A study of Rattus norvegicus with 60 samples.

Results

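Of the 350 rat miRs on the array, 5 are described here: rno-miR-291a-3p, rno-miR-297, rno-miR-298, rno-miR-466b and rno-miR-672, found by their names in the array files. They were picked with their signals in these 10 groups already known, so their differences are given as descriptions and carry no p. Retinas came from 60 male Long Evans hooded rats, with 1 array per rat. In 30 rats the pressure inside 1 eye was held at 110 mmHg for 60 min (IR), and 30 sham control rats had the same surgery without the pressure. Whole retinas were taken at 5 times, from 0 h over 2 h, 24 h and 48 h up to 7d, with 6 rats per treatment and time point, and 100 ng of total RNA was labeled with Cy3. Every sham control group therefore shares the anesthesia, eye drops and cannulation of its IR group.

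miRs are short RNAs that guide Argonaute proteins to messenger RNAs, mostly through pairing of a seed near the 5′ end of the miR, and lower the output of those messages. rno-miR-291a-3p belongs to a cluster best known from embryonic stem cells. rno-miR-466b and rno-miR-297 are rich in alternating uracil and guanine, and rno-miR-466b lies in a repeated cluster within the gene Sfmbt2 in rodents. The whole retina holds neurons, glia and vessels, and in such bulk tissue fewer cells of a type and less RNA per cell cannot be told apart.

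The mature sequences are shown because the probes of the array are built against them and because 4 of the 5 share a motif described further on. They are RefSeq entries on rat build GRCr8, written 5′ to 3′, with the seed (bases 2 to 8) in capitals.
rno-miR-291a-3p: aAAGUGCUuccacuuugugugcc
rno-miR-297: aUGUAUGUgugcauguaugcaug
rno-miR-298-5p: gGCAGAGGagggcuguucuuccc
rno-miR-466b-5p: uAUGUGUGuguguauguccaug
rno-miR-672-5p: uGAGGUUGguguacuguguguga
None of the 5 shares its seed with another of them. In RefSeq, rno-miR-105 has the seed of rno-miR-291a-3p and rno-miR-377-5p that of rno-miR-672-5p, while the seeds of the other 3 occur in no other mature rat miR. The array names of rno-miR-466b and rno-miR-672 carry no arm, and the probe positions did not settle it. The -5p entries are shown for them, and what is said of their sequences holds only if the array measures that arm. The arm of rno-miR-298 was taken from its distance to rno-miR-296, which is 492 bases on the array's annotation. In RefSeq rno-miR-298-5p and rno-miR-296-3p lie 492 bases apart, and the array name rno-miR-296 carries no arm either.

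The 5 loci lie apart on GRCr8, all on the minus strand. rno-miR-291a-3p lies at chr1:74879767-74879789, within the span of the protein-coding gene Nlrp12, and rno-miR-297 at chr10:98715721-98715743, within a long non-coding RNA gene. rno-miR-298-5p lies at chr3:183470571-183470593, where no gene but its own is annotated. rno-miR-466b-5p has 2 loci, and the first, at chr17:72942513-72942534, lies within the span of Sfmbt2, which encodes a Polycomb group protein. rno-miR-672-5p lies at chrX:73192351-73192373, within the span of Nexmif. Whether these positions are exonic or intronic was not determined here.

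The array signal of a miR is the sum over its probes after background subtraction, in signal units, with a flag for detection set by the scanner software. Arrays differed in brightness, taken as the log2 of each array's 75th percentile among 57 miRs that no array missed. The difference of the brightness means, IR minus sham control, was -1.06 at 0 h, -2.15 at 24 h, -1.19 at 48 h and -2.58 at 7d on the log2 scale (n = 6 and 6, exact two-sided permutation test, adjusted p = 0.0379, 0.00541, 0.0108 and 0.00541). At 2 h it was 0.04 (adjusted p = 0.894, same exact test). Within single scan days it was below 0 in 12 of 12 cases at those 4 times, from -2.97 to -0.44. The 0 h difference missed the threshold when any of 6 single arrays was left out. At 24 h and 7d, 6 of 6 IR arrays were dimmer than every sham control array. All values called scaled below were brought to a common brightness and raised to a floor of 6.20 units, or 2.63 on the log2 scale. The 57 miRs include rno-miR-466b and rno-miR-672, and with 57 values the 75th percentile is the signal of 1 miR. That miR was rno-miR-466b on IR replicate 5 at 2 h, 5 and 6 at 24 h and 4 at 48 h. It was rno-miR-672 on IR replicate 6 at 2 h. On these arrays the scaled log2 value of that miR was 9.67 by construction. No slide held IR and sham control arrays of the same time point, so slide and treatment cannot be told apart within a time point, while each of the 3 scan days held equal numbers of both. The retinal miRs rno-miR-124, rno-miR-9, rno-miR-182, rno-miR-183 and rno-miR-96 were detected on all 60 arrays, so they are among the 57 miRs. On the scaled scale none of them was called at any time point. Their unscaled differences at 7d were -2.62, -2.81, -2.72, -2.27 and -2.72 on the log2 scale. rno-miR-204 and rno-miR-211 of the pigment epithelium were also detected on all 60 arrays and not called on the scaled scale. Unscaled, they differed by -2.70 and -2.68 at 7d. Of the blood miRs, rno-miR-144 and rno-miR-142-3p were detected on 0 arrays, rno-miR-451 on 1 and rno-miR-223 on 16, and the liver miR rno-miR-122 on 14.

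**Figure D1:**
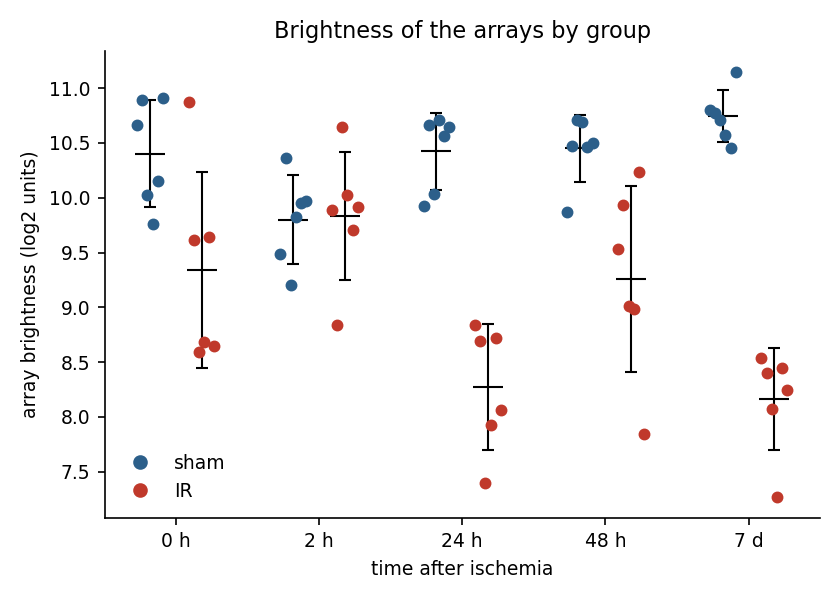
Array brightness (log2 of the 75th percentile of 57 miRs) for each of the 60 arrays by time point, sham control in blue and IR in red, with the group mean and SD in black. IR arrays were dimmer at 4 of the 5 time points, by 2.15 at 24 h and 2.58 at 7d on average, and differed by 0.04 at 2 h.

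The 5 miRs fell into 3 kinds by detection. rno-miR-466b and rno-miR-672 were detected on 60 of 60 arrays. rno-miR-291a-3p was detected on 31 arrays, 22 of them IR and 9 sham control. Only IR at 24 h had it on all 6 arrays, so it entered the fit through a group where it was high. rno-miR-297 was detected on 18 and rno-miR-298 on 13 arrays, and neither reached all 6 arrays of any group, so they did not enter the fit across 159 miRs.

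rno-miR-466b and rno-miR-672 were higher in IR than in sham control at every time point on the scaled scale, whereas on the unscaled scale both means were lower in IR at 24 h and 7d. For rno-miR-466b the scaled log2 signal at 48 h was lowest 9.67 (the value that the scaling sets), median 10.01 and highest 10.93 in IR, against 7.48, 8.25 and 9.04 in sham control. At 24 h it was 8.85, 9.46 and 9.96 in IR against 7.43, 7.87 and 8.06. At 7d it was 8.24, 8.92 and 9.16 in IR against 7.47, 7.57 and 8.16. The groups did not overlap at 24 h, 48 h or 7d. At 2 h the lowest, median and highest values were 8.07, 9.14 and 9.76 in IR against 7.21, 7.77 and 8.34, and at 0 h they were 8.65, 8.97 and 9.70 against 5.33, 7.89 and 8.72. Here 4 of 6 IR arrays at 2 h and 5 of 6 at 0 h exceeded the highest sham control array. The scaled difference of the rno-miR-466b means was 1.52 at 0 h, 1.26 at 2 h, 1.64 at 24 h, 1.91 at 48 h and 1.13 at 7d on the log2 scale (SE 0.32, n = 6 and 6), which are folds of 2.88, 2.39, 3.11, 3.76 and 2.19. With the scaling done without the 5 miRs, the log2 differences were 1.51, 1.29, 1.64, 2.02 and 1.14.

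For rno-miR-672 the scaled log2 signal at 48 h was lowest 9.31, median 9.60 and highest 10.51 in IR, against 6.97, 7.70 and 8.70 in sham control. At 24 h it was 8.32, 8.97 and 9.32 in IR against 6.99, 7.31 and 7.51, and at 7d it was 7.75, 8.45 and 8.66 against 6.93, 7.14 and 7.56. At 2 h it was 7.54, 9.06 and 9.67 (the value that the scaling sets) in IR against 6.46, 7.17 and 7.52. The groups did not overlap from 2 h to 7d, although at 2 h the gap was narrow. At 0 h the values were 8.30, 8.70 and 9.50 against 4.77, 7.36 and 8.47, with 4 of 6 IR arrays above the highest sham control array. The scaled difference was 1.71 at 0 h, 1.74 at 2 h, 1.66 at 24 h, 1.94 at 48 h and 1.13 at 7d on the log2 scale (SE 0.34, n = 6 and 6). With the scaling done without the 5 miRs, it was 1.69, 1.77, 1.67, 2.05 and 1.14.

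The order of the 10 group means put the 5 IR groups above the 5 sham control groups for both miRs. IR at 48 h came first, at 10.14 ± 0.46 for rno-miR-466b and 9.73 ± 0.42 for rno-miR-672 (SD, n = 6), and its distance to IR at 24 h exceeded both SDs. The neighbours from IR at 24 h down to IR at 7d lay within 1 SD of each other, as did the sham control groups. The lowest IR group, 7d, exceeded the highest sham control group, 48 h, by more than either SD for rno-miR-466b (0.59) and not for rno-miR-672 (0.53). Sham control replicate 1 at 0 h stood far below its group in both miRs, and without it the 0 h differences were 1.07 and 1.24.

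rno-miR-291a-3p, of the stem cell cluster, had the largest scaled differences of the 3 miRs in the fit at every time but 2 h, and the fewest detected arrays. Its unscaled signal ran from 5.46 to 103 units over all arrays, with a median of 20.7. At 24 h the scaled log2 signal was lowest 6.15, median 6.47 and highest 7.14 in IR, where all 6 arrays were detected, against 2.65, 3.10 and 4.62 in sham control, where 2 were. At 7d it was 5.49, 6.04 and 6.59 in IR, with 3 arrays detected, against 2.63, 3.11 and 3.64, with 2. The groups did not overlap at these 2 time points. At 48 h it was 3.08, 5.95 and 7.27 in IR (5 detected) against 2.63, 2.76 and 3.37 (2 detected), and at 0 h it was 2.63, 5.73 and 6.74 (4 detected) against 2.63, 3.36 and 3.86 (1 detected). In each case 5 of 6 IR arrays exceeded the highest sham control array. At 2 h it was 2.83, 4.19 and 5.50 (4 detected) against 2.63, 3.31 and 4.61 (2 detected), and the groups overlapped. The scaled difference was 2.02 at 0 h, 0.72 at 2 h, 3.27 at 24 h, 2.74 at 48 h and 2.87 at 7d on the log2 scale (SE 0.46, n = 6 and 6), and the 95% interval at 2 h, from -0.21 to 1.66, held 0.

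**Figure D2:**
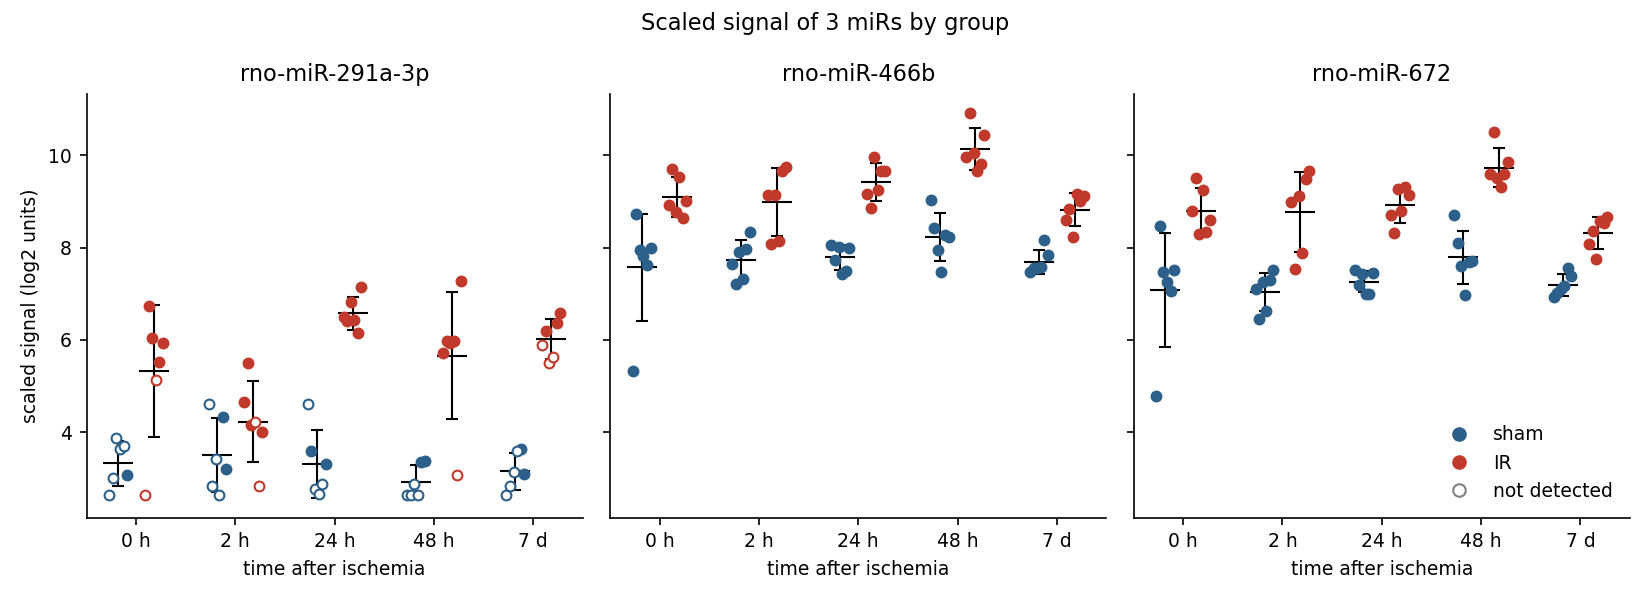
Scaled log2 signal of rno-miR-291a-3p, rno-miR-466b and rno-miR-672 on each array by time point, sham control in blue and IR in red; open circles are arrays where the miR was not detected, and black marks give the group mean and SD. rno-miR-466b and rno-miR-672 show the same pattern of groups, with IR at 48 h highest, and rno-miR-291a-3p has most of its detected arrays in IR.

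By the call used for all miRs (limma, at least 2-fold with an adjusted p of at most 0.05), 3 of the 5 miRs were called higher in IR at every time but 2 h, when 2 were. Of the 159 miRs tested, the share called higher in IR was 6.29% at 0 h, 5.03% at 2 h, 11.9% at 24 h, 10.1% at 48 h and 7.55% at 7d. The share whose IR arrays all lay above all sham control arrays was 4.4%, 2.52%, 17%, 6.29% and 15.1% at the same times. As the 5 miRs were chosen on these signals, and rno-miR-291a-3p passed the filter only through IR at 24 h, nothing is read from their counts. The median scaled difference of the 159 miRs lay between -0.15 and 0.02 on the log2 scale, and that of the 3 miRs between 1.13 and 1.94.

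Without any scaling the picture changed at 24 h and 7d. The unscaled signal of rno-miR-466b at 7d was lowest 99.7, median 183 and highest 220 units in IR, against 360, 395 and 634 units in sham control. That of rno-miR-672 was 70.9, 131 and 158 units in IR against 268, 279 and 465 units. Every IR array was thus below all sham control arrays in both miRs, as was so for 94.3% of the 159 miRs, and the unscaled difference was -1.45 for each on the log2 scale (SE 0.41 and 0.44). At 24 h the unscaled difference was -0.51 for rno-miR-466b and -0.49 for rno-miR-672. Over the 159 miRs the median unscaled difference was -2.50 at 7d and -2.03 at 24 h, so the differences of both lay above that of the median miR. At 2 h, where mean brightness differed by 0.04, the unscaled differences were 1.29 for rno-miR-466b and 1.78 for rno-miR-672, close to the scaled ones. At 0 h and 48 h they were 0.46 and 0.72 for rno-miR-466b and 0.65 and 0.74 for rno-miR-672, with intervals that held 0.

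The unscaled signal of rno-miR-291a-3p did not run with the brightness of its array. Over 60 arrays its r with brightness was -0.34, against 0.50 for rno-miR-466b and 0.47 for rno-miR-672. The median over the 55 other miRs detected on all arrays was 0.98, a description over points that share those arrays. For deviations from the group means, r was 0.11 for rno-miR-291a-3p, 0.66 for rno-miR-466b and 0.68 for rno-miR-672. The unscaled signal of rno-miR-291a-3p at 7d was lowest 9.38, median 28.7 and highest 35.8 units in IR against 12.4, 19.7 and 23.7 units in sham control. At 24 h it was 23.4, 39.9 and 50.8 against 8.77, 16.7 and 29.2 units. The unscaled difference was 1.05 at 0 h, 0.75 at 2 h, 1.12 at 24 h, 1.63 at 48 h and 0.31 at 7d on the log2 scale (SE 0.39), with 95% intervals that held 0 at 2 h (-0.03 to 1.52) and 7d (-0.46 to 1.08), while the scaled difference at 7d was 2.87. With array brightness as a term of the fit, the scaled difference was 1.13, 0.75, 1.48, 1.75 and 0.72 at the 5 times. It was called at 24 h and 48 h, beside 8.81% and 8.18% of the 159 miRs called higher in that fit. As rno-miR-291a-3p was chosen on these signals and entered the fit only through IR at 24 h, nothing is read from these calls. Array brightness as a term left rno-miR-672 at 1.70, 1.74, 1.65, 1.93 and 1.11 and rno-miR-466b at 1.39, 1.26, 1.37, 1.76 and 0.81. Neither was called at 7d, where 3.14% of the 159 miRs were called higher. With that term the SE at 7d rose from 0.34 to 0.52 for rno-miR-672 and from 0.32 to 0.48 for rno-miR-466b. At 7d every IR array was dimmer than every sham control array, so this fit can hardly separate brightness from treatment there. With every signal raised to the highest detection limit of any array, 90.6 scaled units, the differences of rno-miR-291a-3p lay between 0.00 and 0.16.

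**Figure D3:**
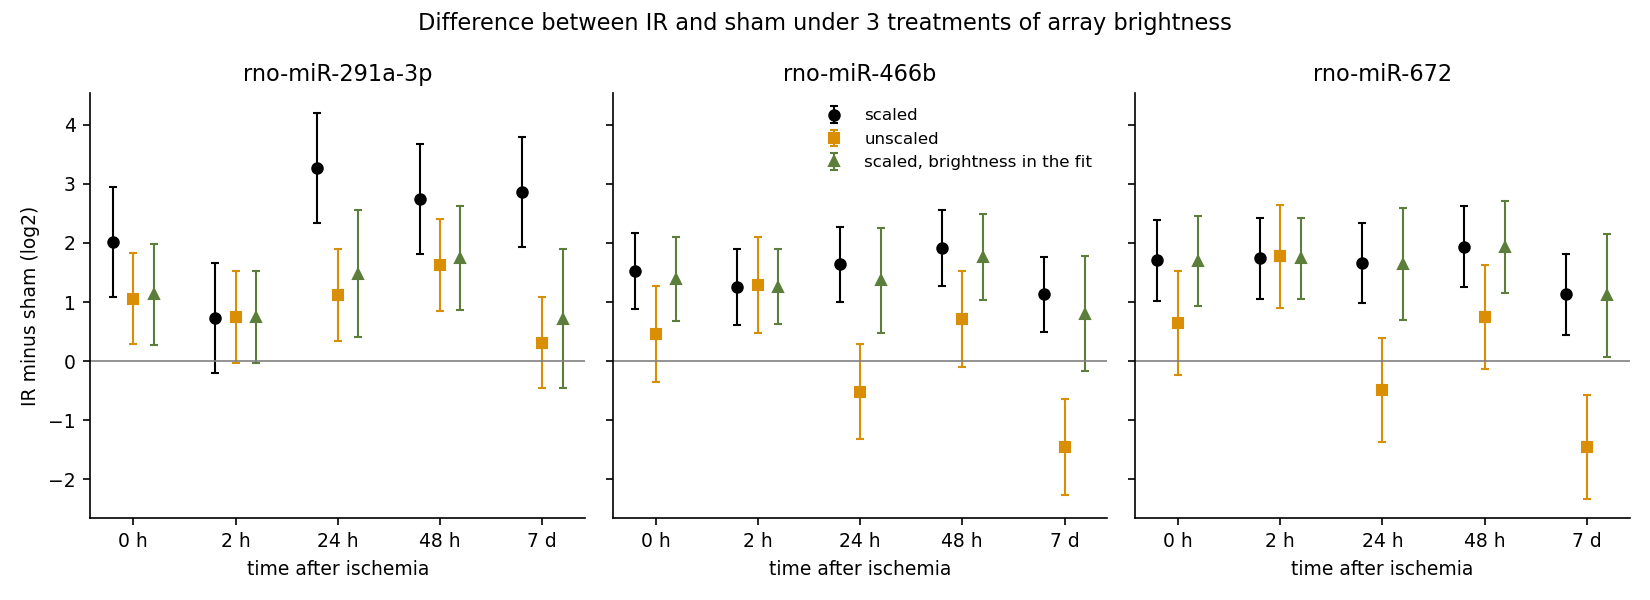
IR minus sham control on the log2 scale with 95% intervals at each time point for 3 miRs, from scaled signals (black), unscaled signals (orange) and scaled signals with array brightness in the fit (green). For rno-miR-466b and rno-miR-672 the unscaled differences lie below 0 at 24 h and 7d (-1.45 at 7d), and for rno-miR-291a-3p they are smaller than the scaled ones except at 2 h.

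Within each scan day, which held 1 to 3 arrays per group, the scaled difference was above 0 in 15 of 15 cases for rno-miR-466b (1.02 to 2.14) and for rno-miR-672 (1.02 to 2.16) on the log2 scale. For rno-miR-291a-3p it was above 0 in 14 of 15 (-0.35 to 3.83), the exception being the third scan day at 2 h.

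rno-miR-466b and rno-miR-672 moved together from array to array. Over the 60 arrays r was 0.99 for the unscaled log2 signals and 0.99 for the deviations from the group means, so the likeness held among rats of 1 group too. Among all tested miRs the 3 most like rno-miR-672 over the 10 group means were rno-miR-466b (r = 0.99), rno-miR-206 (r = 0.99) and rno-miR-539 (r = 0.98). For rno-miR-466b they were rno-miR-672, rno-miR-206 (r = 0.97) and rno-miR-539 (r = 0.96). rno-miR-206 is a miR of skeletal muscle, where rno-miR-1 and rno-miR-133a are abundant too. rno-miR-133a was detected on 0 arrays and rno-miR-1 on 11 of 60, while rno-miR-206 was detected on 57, with scaled differences of 2.04, 2.33, 1.91, 1.96 and 1.34 on the log2 scale at the 5 times. The summed unscaled signal of the 3 muscle miRs was lowest 42.2, median 364 and highest 792 units in IR at 2 h against 29.8, 49.7 and 83.8 units in sham control. At 7d it was 23.3, 54.3 and 66.1 against 87.5, 104 and 198 units. Its medians were 126 against 72.5 units at 0 h, 70.6 against 89.9 at 24 h and 227 against 152 at 48 h. Most of the sum was rno-miR-206, whose own median in IR was 336 units at 2 h and 53.8 at 7d. The part of muscle RNA in the signals of rno-miR-466b and rno-miR-672 was not tested. rno-miR-539 showed scaled differences of 2.23, 2.60, 2.28, 2.19 and 1.72. All of these correlations are descriptions over arrays that share their brightness.

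**Figure D4:**
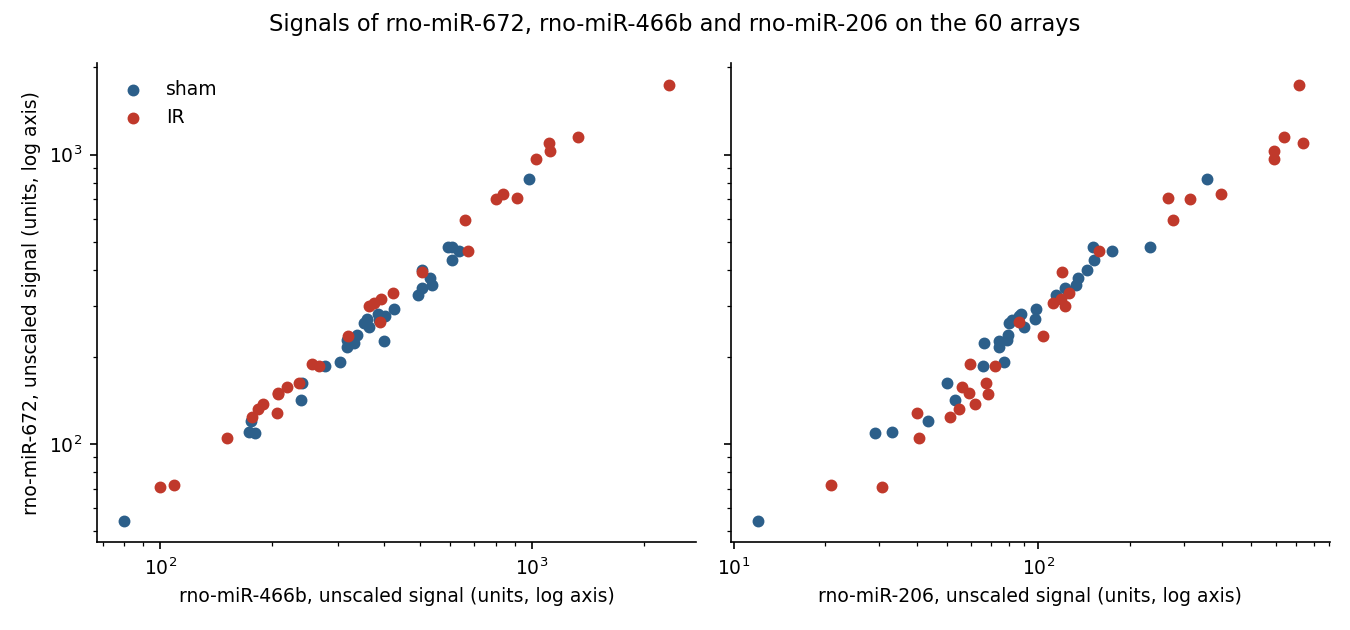
Unscaled signal of rno-miR-672 against that of rno-miR-466b (left) and rno-miR-206 (right) on the 60 arrays, sham control in blue and IR in red, all axes logarithmic. The points follow a single line in both panels for IR and sham control alike, with r = 0.99 on the left and 0.98 on the right for the log2 signals.

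rno-miR-291a-3p had another partner. Over the 10 group means its nearest miR was rno-miR-493 (r = 0.996), followed by rno-miR-378* (r = 0.98) and rno-miR-598-3p (r = 0.95). On the unscaled log2 scale over 60 arrays, r was 0.93 for rno-miR-493, 0.36 for rno-miR-378* and -0.01 for rno-miR-598-3p, so the likeness to the last 2 was seen on the scaled scale only. The scaled differences of rno-miR-493 were 2.13, 0.99, 3.03, 2.59 and 2.60 on the log2 scale.

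Stretches of alternating uracil and guanine are shown here in capitals for 3 of the 5 miRs and for rno-miR-206, rno-miR-539 and rno-miR-493. These sequences were picked after the values had been seen and with no test. The array names rno-miR-206, rno-miR-539 and rno-miR-493 carry no arm, and the arms shown were taken from distances to neighbouring miRs. What is said of their sequences holds only if those arms are right.
rno-miR-466b-5p: uaUGUGUGUGUGUauguccaug
rno-miR-672-5p: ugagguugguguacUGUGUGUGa
rno-miR-206-3p: uggaauguaaggaaGUGUGUGg
rno-miR-539-5p: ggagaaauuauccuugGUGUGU
rno-miR-291a-3p: aaagugcuuccacuuUGUGUGcc
rno-miR-493-3p: ugaaggucuacUGUGUGccag
The letters GUGUG, looked for on the strand of the miR itself after the values had been seen, occur in 22 of 693 mature rat miRs in RefSeq, or 3.17%. They occur in rno-miR-297 as well and not in rno-miR-298-5p. Of the array miRs that could be given 1 RefSeq sequence, 177 in all, 8 hold them, including rno-miR-291a-3p and rno-miR-297. Of the other 6, rno-miR-147 and rno-miR-20b-3p were detected on 0 arrays, and rno-miR-1, detected on 11, had r = 0.83 with rno-miR-672 on the unscaled log2 scale. rno-miR-333, which has no RefSeq entry, and rno-miR-93, whose arm was not settled, had r = 0.83 and 0.79 with rno-miR-672 on that scale. rno-let-7d*, whose settled sequence does not hold the letters, was detected on 40 arrays and had r = 0.72 with rno-miR-291a-3p. For rno-miR-378* there is no RefSeq entry. rno-miR-598-3p, rno-miR-181d, rno-miR-382 and rno-miR-92a, named here as most like 1 of the 5, are not among the 8. Which of them could be given a sequence is not reported here. If the array measured the other arm, rno-miR-466b-3p and rno-miR-672-3p, the letters would not be there.

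rno-miR-297 stood near background. Its unscaled signal ran from -7.28 to 26.3 units with a median of -0.22, and 32 of 60 arrays gave 0 or less. The highest signals were in IR: 26.3 and 23.8 units at 2 h, 22.6 at 48 h and 19.4 at 0 h, while the highest sham control array gave 8.71 units. Detected arrays numbered 2, 4, 0, 4 and 0 in IR and 1, 2, 1, 2 and 2 in sham control from 0 h to 7d. At 24 h and 7d, where no IR array was detected, no fold is given, since the bound was under 1. Only the probes of 17 and 18 bases gave signal, with highest values of 8.56 and 20.5 units, against 3.09 and 0.25 units for those of 15 and 16 bases. On the unscaled log2 scale with values under 1 unit set to 1, r was 0.75 with rno-miR-466b and 0.78 with rno-miR-672 over the 60 arrays. On the scaled scale, where 49 of 60 values lay at the floor, the tested miRs most like it over the 10 group means were rno-miR-333 (r = 0.88), rno-miR-181d (r = 0.88) and rno-miR-382 (r = 0.84), with r = 0.70, 0.61 and 0.58 over the 60 arrays.

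rno-miR-298 was detected only on the third scan day. There its unscaled signal was lowest 12.1, median 13.8 and highest 16.6 units over 16 arrays, 13 of them detected, while on the other 44 arrays it ran from -7.33 to 3.22 units with 0 detected. Every array of the third scan day exceeded every other array, IR and sham control alike, and of the 350 miRs this was so for 2, rno-miR-298 and rno-miR-92b. All 4 probes of rno-miR-298 showed the step, for example from a median of 0.40 units to 3.21 units in the probe of 16 bases. The SD of the negative control spots was 1.94 to 3.17 units on the third scan day and 6.12 to 8.14 units on the others, and the median number of miRs detected was 190 against 130. Detected arrays numbered 5 in IR and 8 in sham control, and the scaled differences of rno-miR-298 from 0 h to 48 h, between 0.04 and 0.53 on the log2 scale, come from values of which most lie at the floor. At 7d, where no IR array was detected, no difference is given, and the part of the scan in its signal was not tested. On the scaled scale, with 44 of 60 values at the floor, the tested miRs most like it over the 10 group means were rno-miR-291a-3p (r = 0.89), rno-miR-493 (r = 0.88) and rno-miR-92a (r = 0.88), with r = 0.39, 0.41 and 0.19 over the 60 arrays. rno-miR-297 was detected on 12 of the 16 arrays of the third scan day and on 6 of the other 44, and rno-miR-291a-3p on 14 and 17.

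**Figure D5:**
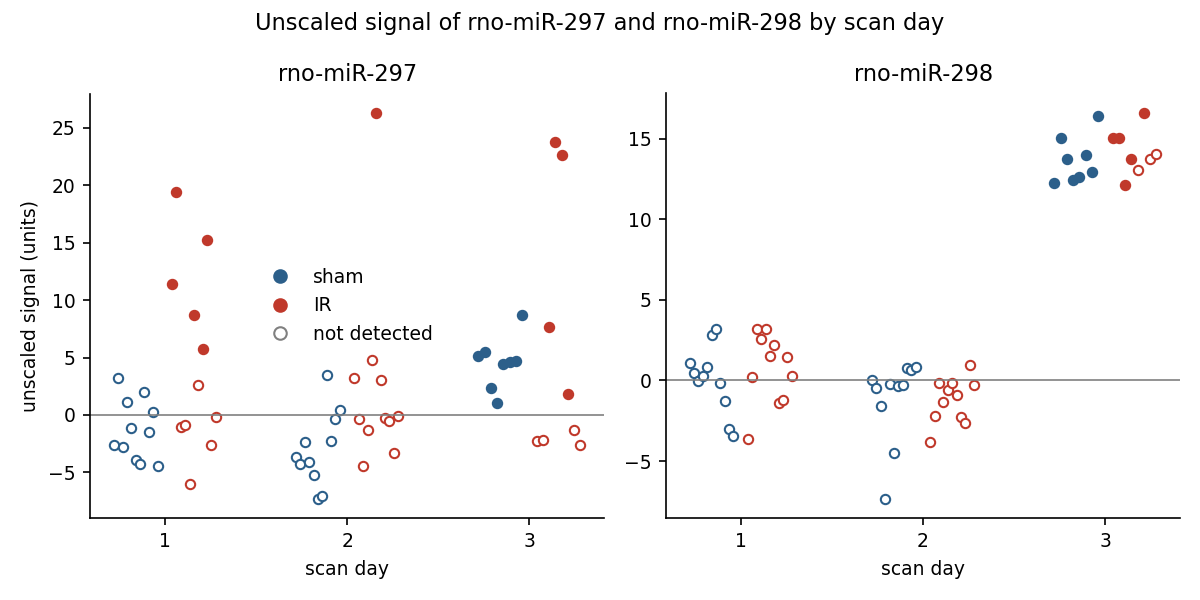
Unscaled signal in units of rno-miR-297 (left) and rno-miR-298 (right) on each array by scan day, sham control in blue and IR in red, with open circles where the miR was not detected. rno-miR-298 lies between 12.1 and 16.6 units on the third scan day and at or under 3.22 units on the others, and the highest signals of rno-miR-297 are IR arrays of all 3 days.

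The relatives of the 5 miRs were near background. Of the 7 other array miRs with the same or neighbouring numbers, rno-miR-290 was detected on 6 arrays and rno-miR-296* on 7, with highest unscaled signals of 21.4 and 16.3 units. rno-miR-291a-5p, the other arm of the rno-miR-291a hairpin, rno-miR-292-3p, rno-miR-292-5p, rno-miR-296 and rno-miR-466c were detected on 0 arrays, with no signal above 3.63 units. A set of 6 other miRs, rno-miR-207, rno-miR-328, rno-miR-331, rno-miR-333, rno-miR-346 and rno-miR-347, served for comparison. It was chosen with earlier results known and is not typical of the array. All 6 were called higher at 24 h, beside 11.9% of the 159 miRs. The median unscaled difference of the set at 7d was -1.08, against -2.50 over the 159 miRs. On the log2 scale the scaled differences of the set had medians of 1.01, -0.09, 1.43, 0.94 and 1.39 from 0 h to 7d. Their lowest values were 0.58, -1.50, 1.00, 0.34 and 0.07, and their highest 1.55, 1.68, 2.64, 1.64 and 2.56, in the same order. The 1.13 of rno-miR-466b and rno-miR-672 at 7d lay under that median, and their differences at 24 h within the range of the set. At 48 h both lay above the range, at 1.91 and 1.94. rno-miR-672 lay above it at 0 h (1.71) and 2 h (1.74) too, while rno-miR-466b lay within it (1.52 and 1.26). rno-miR-291a-3p lay above the range at 0 h (2.02), 24 h (3.27), 48 h (2.74) and 7d (2.87) and within it at 2 h (0.72).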

How the data were processed

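Signals came from 60 Agilent 1-colour miR arrays (6 per treatment and time point). Per the file headers, the authors extracted spot intensities with Agilent Feature Extraction 9.5.3.1, which subtracted background, and probes are annotated on rn4. The deposited intensity of each miR is the total over its probes, not normalized between arrays, with a detection flag. A second deposited file holds the authors' log2 values of 219 features and served as an alternative. Its 12600 values for 210 rat miRs equaled log2 total signal minus 1 constant per array (tolerance 0.001), and its column medians lay between -0.856 and -0.409.

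Scaling divided each array by its 75th percentile among 57 miRs seen on every array. Values were then raised to a floor of 6.20 units and taken to log2. A miR entered the fit if some group had it detected on all 6 arrays, which left 159. limma 3.58.1 in R 4.3.3 fitted the 10 groups over all 60 arrays, with IR minus sham control as the contrast at each time. A call needed a log2 difference of 1 or more and an adjusted p (Benjamini-Hochberg) not above 0.05. The methods name no test for miRs. Brightness was compared by exact two-sided permutation tests, whose smallest p is 0.00216, adjusted over 5 time points. The fit was tested on simulated data of independent noise. They held no brightness differences, slide effects or floor, so that test does not bear on these. Further steps ran in Python 3.11.15 with scipy 1.17.1, numpy 2.4.6, matplotlib 3.10.9 and pandas 2.3.3.

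The 5 miRs, the relatives, the comparison set and the marker miRs were chosen with earlier results of these data known. For each of the 5, the 3 most like miRs were the tested ones with the highest Pearson r over the 10 group means. The p-values rest on the spread between arrays, each from a different rat. Differences between rats cannot be told apart in it from those of labeling, array and slide. The number of arrays limits the precision. Alternatives changed the normalization, background, floor, filter, samples and blocks. No sample was left out.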

Additional observations from a re-analysis of the deposited data

Results flagged for a closer look

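Of 50 groups of 6 scaled log2 values (5 miRs, 10 groups), 9 held an array far from the others by Dixon's test, which marks about 1 group in 20 by chance, and 2 of 10 groups did for brightness. rno-miR-466b in sham control replicate 1 at 0 h lay at 5.33, with its nearest neighbour at 7.63. rno-miR-291a-3p in IR replicate 5 at 48 h lay at 3.08, with its nearest neighbour at 5.71, and without that array its scaled difference was 3.26. The other 7 arrays were the highest of groups whose other values were mostly at the floor of 2.63. For rno-miR-298 they were IR replicate 6 at 0 h (4.94), IR replicate 6 at 24 h (5.52), sham control replicate 6 at 24 h (2.93), IR replicate 6 at 48 h (5.88) and sham control replicate 5 at 7d (2.91), all from the third scan day. For rno-miR-297 they were IR replicate 2 at 0 h (4.33) and IR replicate 5 at 24 h (3.21). Brightness was low in sham control replicate 1 at 48 h (9.87, nearest 10.46) and IR replicate 4 at 7d (7.27, nearest 8.07) on the log2 scale.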

How the results depend on the processing

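Of 290 recomputed differences of the 5 miRs, 261 moved by less than 1 SD, 25 by more, and 4 changed sign. Those 4 came without normalization between arrays: rno-miR-466b at -0.51 (24 h) and -1.45 (7d), and rno-miR-672 at -0.49 and -1.45. Several alternatives could not move a difference: another list of miRs, only the 12 arrays of a time, or replicate or scan day as a block. They can change the calls only. Lower floors also left the differences of rno-miR-466b and rno-miR-672 as they were. The count of small moves is therefore no measure of stability. The calls were 11, 8, 29, 22 and 29 of the 159 miRs from 0 h to 7d. They became 79, 4, 136, 119 and 149 without normalization, 3, 3, 8, 5 and 6 with the highest detection limit as the floor, 41, 2, 63, 63 and 95 with normexp background correction, and 2, 2, 6, 4 and 4 among miRs detected on all arrays. They were 21, 45, 35 and 48 at 0 h, 24 h, 48 h and 7d with the authors' table, and 18, 13 and 44 at 0 h, 2 h and 24 h among miRs detected on at least 1 array. They were 5 at 0 h with only the 12 arrays of that time, 7 at 0 h and 4 at 2 h with slide as a fixed block, 34 at 48 h with a floor of 1 signal unit, 14 at 24 h and 5 at 7d with array brightness in the fit, and 5 at 2 h without the third scan day, an alternative chosen after seeing the data.

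Of the 5 miRs, 1 was called at 0 h, 2 h, 24 h and 48 h without normalization, and at 7d 2 were called, both lower in IR. None (0) was called at 0 h with only the 12 arrays of that time or at 7d with array brightness in the fit. At 2 h 1 was called with normexp correction, with slide as a fixed block and without the third scan day. At 7d 1 was called with the authors' table and with the 75th percentile over all rat miRs. The latter scaling called 37 of all tested miRs at 7d. Leaving out any 1 array kept the counts of the 5 at 3, 2, 3, 3 and 3. Over all tested miRs the calls then ran from 9 to 16 at 0 h and 6 to 9 at 2 h. They ran from 25 to 34 at 24 h, 18 to 28 at 48 h and 27 to 35 at 7d. As the 5 were chosen on these signals, no stability is read from their counts. Scaling without the 5 miRs, also chosen later, changed none of the counts of the 5 by more than 1.5 times. The replicate numbers did not pair the arrays: deviations of same-numbered arrays had r from -0.45 to 0.60, over 0.1 in 15 of 30 pairs. With the replicate block 10, 8, 29, 21 and 29 miRs and 3, 2, 3, 3 and 3 of the 5 were called.

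The brightness difference at 0 h was -0.74 with the 75th percentile over all rat miRs and -0.91 with the median, and neither passed the threshold (exact permutation, adjusted p = 0.143 and 0.0731). Leaving out single arrays gave -1.37 to -0.91 at 0 h, where IR replicates 3, 4 and 6 and sham control replicates 1, 2 and 6 each ended the call, and -0.13 to 0.23 at 2 h. Signals of rno-miR-297, rno-miR-298 and part of those of rno-miR-291a-3p lie at the limit of detection, so low levels there are not measured.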
